A study of Homo sapiens with 4 samples.

Results

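The 44 genes described here encode the machinery that copies DNA in S phase and the regulators that commit a cell to it. They were taken by symbol from a list of 44 names, which was drawn up with earlier results of the same libraries known, and comprise genes of origin licensing, the replicative helicase, the clamp and its loader, the polymerases, nucleotide supply, the G1/S switch and histone supply. All 44 were found among the 26364 genes listed, and all 44 passed the filter on low counts that left 16040 genes for testing. Messenger RNA was sequenced in NTERA2, a human embryonal carcinoma line that resembles pluripotent cells, and the labels give a single clone of it. Cells labelled BEND3 sh60 gave 2 libraries (replicates 1 and 2), and cells labelled BEND3 LacZ gave 2 libraries (replicates 1 and 3). BEND3 is a chromatin protein that represses transcription. The name sh60 is read as a short hairpin RNA against BEND3 and LacZ as its control, which the labels do not spell out. The hairpin's target site, its delivery and the time of harvest are not given in the sources used here, and all cells were grown in high-glucose medium with serum and antibiotics. The labels call the line a lung carcinoma derived from ES cells, but the 10 listed markers of lung epithelium together made up 5.40 and 4.40 CPM in sh60, against 6.08 and 6.72 CPM in LacZ. Of these 10, SFTPB and SCGB1A1 had 0 counts in all 4 libraries, 3 passed the filter, and AGER was the highest, at 4.20 and 3.31 CPM in sh60, against 4.99 and 5.76 CPM in LacZ. All 12 listed markers of embryonal carcinoma passed the filter, with sums of 6391 and 6147 CPM in sh60, against 6631 and 6803 CPM in LacZ.

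A chromosome is copied from many origins. In G1 the origin recognition complex, with CDC6 and CDT1, loads the MCM helicase as an inactive ring. In S phase kinases recruit CDC45 and the GINS complex to that ring, which turns it into the active helicase of the fork, and polymerases held by the PCNA clamp follow. Most of these genes are transcribed by E2F factors, which the RB family holds back until cyclin-dependent kinases phosphorylate it. p21, the product of CDKN1A, inhibits cyclin E and its kinase. Pluripotent cells have a short G1 and keep licensing factors and cyclin E high through much of the cycle.

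The libraries held 33798665 and 44788461 counts for sh60 replicates 1 and 2, and 42538561 and 30338285 counts for LacZ replicates 1 and 3. Levels are given as CPM, counts scaled to a common library size after TMM adjustment for composition, and the fewest counts of any of the 44 genes in any library were 226. Nothing in the labels states that the replicates are independent cultures, and p-values therefore reflect how far these 4 libraries scatter, possibly for technical reasons alone. BEND3 itself was at 55.7 and 52.0 CPM in sh60 libraries, against 68.8 and 79.3 CPM in LacZ libraries, a log2 fold change of -0.46 (SE 0.098, edgeR adjusted p = 0.00168). Without LacZ replicate 3 the BEND3 value was -0.36 and did not pass (adjusted p = 0.153).

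Replication genes were modestly lower in sh60 cells. Of the 44 genes, 18 fell and 0 rose at an adjusted p of 0.05 by edgeR's quasi-likelihood test, and 26 did not pass. Among all genes tested, 13.0% fell and 15.8% rose by the same rule. Some of the genes tested had far fewer counts than any of the 44, so that a small change in them is harder to call. The 18 falls were of 13.9% to 38.5%, with a median of 21.4%. MCM5 and E2F2, 2 of the 18, reached 1.5-fold, a size at which 5.11% of all genes fell. The median log2 fold change of the 44 genes was -0.22 and that of all genes tested was -0.0042. Both sh60 libraries lay below both LacZ libraries for 35 of the 44 genes (79.5%), as they did for 32.3% of all genes tested. They lay above both LacZ libraries for 1 gene, GINS1, and for 32.1% of all genes tested. The 44 genes together took 5249 and 5239 CPM in sh60 libraries, against 6061 and 6159 CPM in LacZ libraries. Fewer cells in S phase and less of each mRNA per cell cannot be told apart in such bulk libraries.

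**Figure D1:**
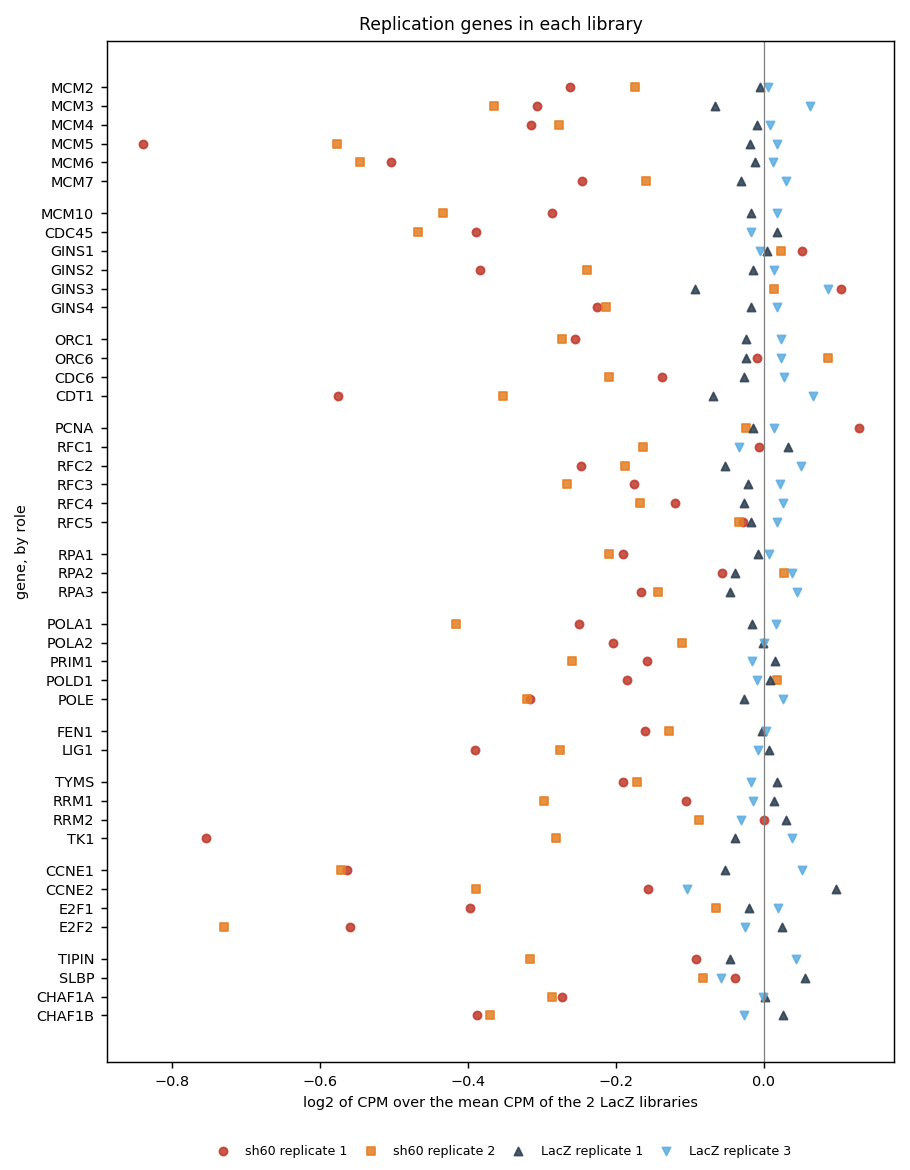
The level of each of the 44 genes in each library, as the log2 of its CPM over the mean CPM of the 2 LacZ libraries, with genes grouped by role down the page. Points are single libraries (red circles and orange squares sh60, dark and light blue triangles LacZ), and both sh60 points lie left of both LacZ points for 35 of 44 genes.

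The number of falls depended on the libraries used. It was 7 without LacZ replicate 1, 5 without LacZ replicate 3, 29 without sh60 replicate 1 and 27 without sh60 replicate 2, while the median log2 fold change stayed between -0.23 and -0.20. The count was 33 after trends with GC content and gene length were removed and 4 when falls had to exceed 1.2-fold. MCM5, MCM6, CCNE1 and E2F2 passed in all 14 alternatives, and 36 of the 44 genes kept a negative value in all of them. Replicates differed in either direction, with the largest log2 gaps in sh60, at -0.47 for TK1, -0.33 for E2F1 and -0.26 for MCM5 (replicate 1 minus replicate 2), and the largest in LacZ at 0.20 for CCNE2 (replicate 1 minus replicate 3). LacZ replicate 1 was below LacZ replicate 3 for 30 of the 44 genes, with a median log2 difference of -0.03, and sh60 replicate 1 was below sh60 replicate 2 for 19, with a median of 0.01.

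**Figure D2:**
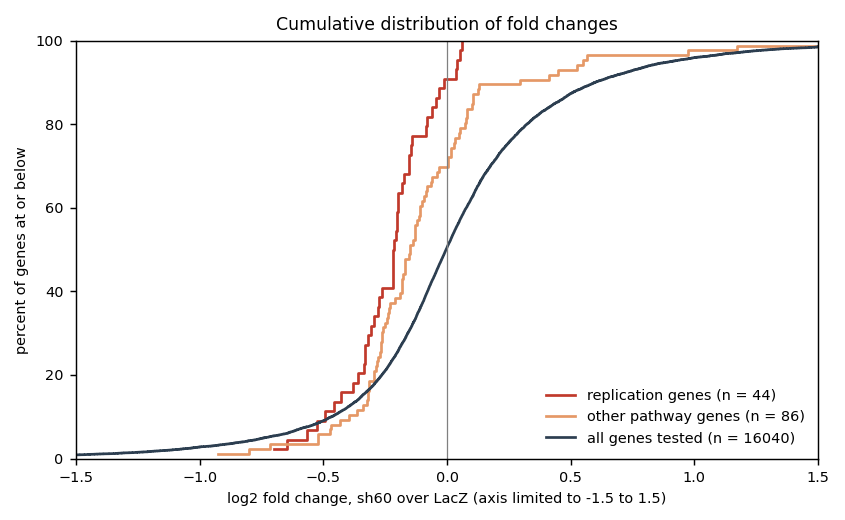
Cumulative distribution of the log2 fold change of sh60 over LacZ (x axis, limited to values between -1.5 and 1.5) for the 44 replication genes (red), 86 other genes of the pathway (orange) and all 16040 genes tested (dark blue), with the percent of genes at or below each value on the y axis. At 0 the red curve stands at 90.9% and the dark blue one at 50.5%.

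These genes were chosen for their roles in replication and not by promoter sequence, but most such genes are transcribed by E2F factors. A higher share of E2F motifs was therefore likely from the choice alone. The E2F pattern searched was more frequent in the promoters of these genes than in those of all tested genes, though most of them lacked it. RefSeq promoters (GRCh38.p14, 250 bases before to 50 after the start) were matched by symbol for 38 of the 44 genes. MCM4, MCM5, GINS4, RPA2, RPA3 and CCNE2 had no match. The E2F motif TTTNGCGC, searched on both strands, was found in 15 of the 38 (39.5%), against 321 of 11586 promoters of tested genes (2.77%). It was found in 7 of the 16 matched genes that fell and in 8 of the 22 that did not pass. The CCAAT box, CCAAT on either strand, was in 22 of the 38 (57.9%), against 35.9% of promoters of tested genes. The cell cycle homology region, TTTGAA on either strand, was in 1 of the 38 (2.63%, RRM1), against 10.1%. Only in 1 case did an E2F match share a base with a CCAAT match. The median GC content of the windows was 66.7% for the 38 genes and 65.0% for tested genes. A match describes letters in a window and is not a binding site, and other E2F patterns were not searched. The bases before the start are shown for the 3 genes with the smallest p among those with an E2F match, as examples of this letter pattern, with matches on either strand in capitals. MCM6 lies at chr2:135876444-135876693 on the minus strand, CDT1 at chr16:88803539-88803788 on the plus strand and E2F2 at chr1:23531234-23531483 on the minus strand (GRCh38.p14), each read 5′ to 3′.
MCM6: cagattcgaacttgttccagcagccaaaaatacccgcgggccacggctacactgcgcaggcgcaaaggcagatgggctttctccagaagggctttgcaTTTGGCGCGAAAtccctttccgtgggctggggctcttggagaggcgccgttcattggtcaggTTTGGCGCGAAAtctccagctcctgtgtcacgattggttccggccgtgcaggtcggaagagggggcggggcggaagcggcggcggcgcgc
CDT1: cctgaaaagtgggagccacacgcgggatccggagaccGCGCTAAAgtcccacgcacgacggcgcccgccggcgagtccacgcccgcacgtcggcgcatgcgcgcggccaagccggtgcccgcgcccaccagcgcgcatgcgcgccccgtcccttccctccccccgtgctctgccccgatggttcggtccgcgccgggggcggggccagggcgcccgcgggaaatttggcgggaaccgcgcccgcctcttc
E2F2: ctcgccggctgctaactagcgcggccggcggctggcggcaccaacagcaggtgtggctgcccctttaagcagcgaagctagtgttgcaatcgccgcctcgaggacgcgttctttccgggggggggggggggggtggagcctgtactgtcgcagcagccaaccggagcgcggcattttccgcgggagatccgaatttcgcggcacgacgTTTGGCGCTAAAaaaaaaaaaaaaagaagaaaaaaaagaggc
In MCM6 a match on each strand overlaps at 152 and 148 bases before the start and again at 90 and 86 bases. In CDT1 the match begins 213 bases before the start, and in E2F2 an overlapping pair begins at 42 and 38 bases.

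**Figure D3:**
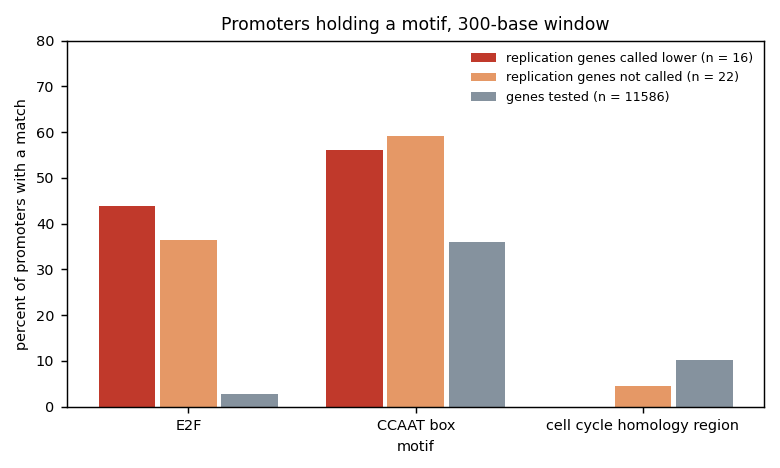
Percent of promoters (y axis) that hold each motif (x axis) within the 300-base window, for 16 replication genes that fell (red), 22 that did not pass (orange) and 11586 tested genes (grey). The E2F motif was in 43.8% and 36.4% of the replication gene promoters, against 2.77% of those of tested genes.

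The replicative helicase was the role with the most falls. MCM2 to MCM7 form a ring of 6 different subunits that unwinds the parental strands. Of the 6 genes 5 fell, where 13.0% of all genes tested fell. MCM5 (chromosome 22, 35796116 to 35820495, hg19) was at 93.1 and 111.7 CPM in sh60 libraries, against 164.5 and 168.8 CPM in LacZ libraries. Its means were 102.4 ± 13.1 CPM in sh60 and 166.7 ± 3.01 CPM in LacZ (SD, n = 2 each), a log2 fold change of -0.70 (SE 0.093, edgeR adjusted p = 1.89e-05). MCM6 (chromosome 2, 136597196 to 136634047, hg19) was at 191.3 and 185.8 CPM in sh60, against 268.9 and 273.6 CPM in LacZ. The groups did not overlap, and the log2 fold change of MCM6 was -0.52 (SE 0.079, edgeR adjusted p = 7.17e-05). MCM3 was at 253.4 and 243.5 CPM in sh60, against 299.4 and 327.4 CPM in LacZ (log2 fold change -0.34, adjusted p = 0.00449). MCM4 was at 472.5 and 484.9 CPM in sh60, against 584.3 and 591.2 CPM in LacZ (log2 fold change -0.30, adjusted p = 0.00675). In both genes, as in MCM6, the 2 sh60 libraries lay below the 2 LacZ libraries, as they did for 32.3% of all genes tested.

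MCM2 and MCM7 moved less. MCM2 was at 219.7 and 233.6 CPM in sh60, against 262.4 and 264.4 CPM in LacZ, and passed narrowly (log2 fold change -0.22, edgeR adjusted p = 0.0490). The MCM2 call was also lost by DESeq2, with library totals only and with no count filter. MCM7 was at 357.2 and 379.5 CPM in sh60, against 414.8 and 432.6 CPM in LacZ, and did not pass (log2 fold change -0.20, 95% confidence interval -0.37 to -0.04, adjusted p = 0.0627). The log2 fold change of MCM7 was -0.16 without sh60 replicate 1 and -0.25 without sh60 replicate 2. Without LacZ replicate 1 the calls of MCM2 (adjusted p = 0.363) and MCM4 (0.136) were lost, and without LacZ replicate 3 those of MCM2 (0.424), MCM3 (0.256) and MCM4 (0.181), with log2 values between -0.30 and -0.21.

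Levels per length differed among the 6 subunits. Per kilobase of exon, MCM5 was the lowest of the 6 in every library and MCM4 or MCM7 the highest. The highest was 2.67 and 2.37 times the lowest in sh60 replicates 1 and 2, against 1.84 and 1.81 times in LacZ replicates 1 and 3. In the mean per kilobase, the 6 genes ran from 40.2 to 100.8 CPM in sh60 and from 65.5 to 119.6 CPM in LacZ. The GINS genes ran from 12.4 to 37.4 CPM per kilobase in sh60 and from 11.9 to 46.4 in LacZ, below all 6 MCM genes in both groups.

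**Figure D4:**
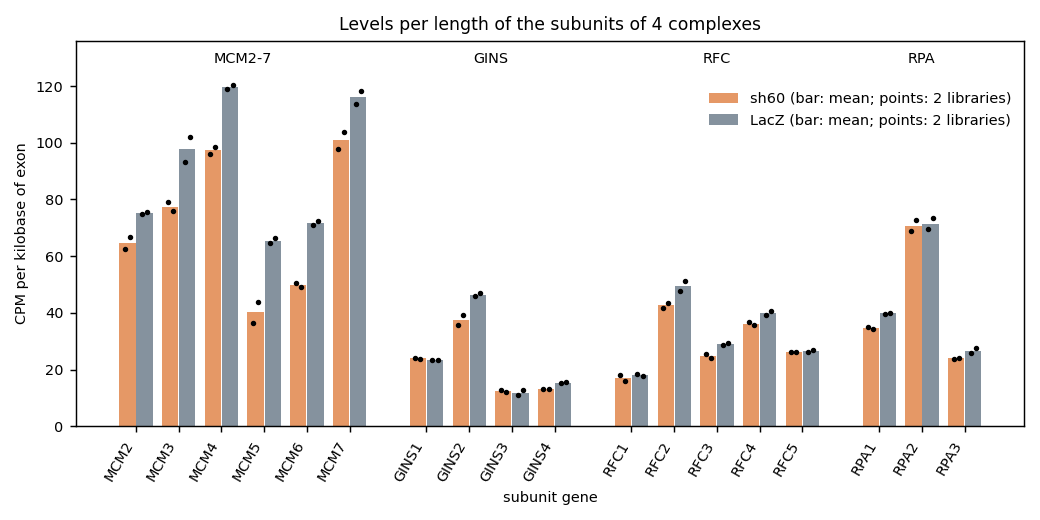
Mean level per length (CPM per kilobase of exon, y axis from 0) of each subunit gene of the MCM, GINS, RFC and RPA complexes (x axis) in sh60 (orange, left bar) and LacZ (grey, right bar), with the 2 libraries of each group as points. MCM5 has the lowest bars among the MCM genes, 40.2 in sh60 and 65.5 in LacZ, and the GINS1, GINS3, RFC5 and RPA2 bars differ little between groups.

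Factors that activate the loaded helicase fell for 3 of 6 genes, where 13.0% of all genes tested fell. CDC45, which joins the MCM ring at the start of S phase, was at 19.3 and 18.3 CPM in sh60, against 25.6 and 24.95 CPM in LacZ (log2 fold change -0.43, SE 0.108, edgeR adjusted p = 0.00576). MCM10, needed for the helicase to start, was at 60.2 and 54.4 CPM in sh60, against 72.5 and 74.3 CPM in LacZ (log2 fold change -0.36, adjusted p = 0.00751). GINS2 was at 41.9 and 46.4 CPM in sh60, against 54.2 and 55.3 CPM in LacZ (log2 fold change -0.31, adjusted p = 0.0229). For these 3 genes both sh60 libraries lay below both LacZ libraries, as they did for 32.3% of all genes tested.

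The GINS proteins form a complex of 4 different subunits, and GINS2 alone among their genes passed the test. GINS1 was at 79.5 and 78.0 CPM in sh60, against 77.0 and 76.5 CPM in LacZ (log2 fold change 0.04, 95% confidence interval -0.15 to 0.22, edgeR adjusted p = 0.793). GINS3 was at 30.5 and 28.7 CPM in sh60, against 26.6 and 30.1 CPM in LacZ, and the groups overlapped (interval -0.16 to 0.29). GINS4 was at 50.4 and 50.8 CPM in sh60, against 58.2 and 59.7 CPM in LacZ, and did not pass (log2 fold change -0.22, interval -0.41 to -0.02, adjusted p = 0.0856). Its sh60 libraries lay below its LacZ libraries, as for 32.3% of all genes tested. The log2 fold change of GINS4 was -0.21 without sh60 replicate 1 and -0.22 without sh60 replicate 2. The difference between GINS subunits was not tested. Leaving out LacZ replicate 1 ended the calls of CDC45, MCM10 and GINS2 (adjusted p = 0.0818, 0.112 and 0.200), and so did leaving out LacZ replicate 3 (0.0558, 0.177 and 0.276).

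Origin licensing genes were divided. CDT1, which brings the MCM ring to origins and is destroyed once S phase begins, was at 57.9 and 67.5 CPM in sh60, against 82.2 and 90.3 CPM in LacZ. Both sh60 libraries were lower than both LacZ libraries, as for 32.3% of all genes tested. The log2 fold change of CDT1 was -0.46 (SE 0.099, edgeR adjusted p = 0.00182). ORC1, the origin recognition subunit whose level varies most through the cycle, was at 132.9 and 131.3 CPM in sh60, against 156.1 and 161.4 CPM in LacZ (log2 fold change -0.26, adjusted p = 0.0206). CDC6, the loader that works with CDT1, was at 131.7 and 125.3 CPM in sh60, against 142.2 and 147.6 CPM in LacZ, and did not pass (log2 fold change -0.17, interval -0.35 to 0.00089, adjusted p = 0.130). ORC6, another origin recognition subunit, was at 78.0 and 83.4 CPM in sh60, against 77.2 and 79.8 CPM in LacZ, with overlapping groups (log2 fold change 0.04). CDT1 was not called without LacZ replicate 3, and ORC1 was not called without LacZ replicate 1 or 3. The log2 fold change of CDC6 was -0.21 without sh60 replicate 1.

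The clamp and its loader gave 0 falls among 6 genes, where 13.0% of all genes tested fell. The number was 2 with upper-quartile scaling and 4 with GC and length trends removed. PCNA, the sliding clamp that tethers polymerases to DNA, was at 325.5 and 292.8 CPM in sh60, against 294.8 and 300.8 CPM in LacZ, so that the LacZ values lay inside the sh60 range. Its log2 fold change was 0.05, with a 95% confidence interval of -0.12 to 0.23 (edgeR adjusted p = 0.672). Reads of PCNA can be shared with its pseudogenes, of which the gene name table lists 3.

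RFC1 to RFC5 form the loader that opens and closes the clamp. RFC3 was at 73.5 and 69.0 CPM in sh60, against 81.7 and 84.2 CPM in LacZ (log2 fold change -0.22, edgeR adjusted p = 0.0748). RFC2 was at 77.0 and 80.2 CPM in sh60, against 88.2 and 94.6 CPM in LacZ (log2 fold change -0.22, adjusted p = 0.0780). Neither passed. Both sh60 libraries lay below both LacZ libraries for these 2 genes, as they did for 32.3% of all genes tested. Their intervals, which are not adjusted for the number of genes, lay below 0. RFC4 was at 58.2 and 56.3 CPM in sh60, against 62.1 and 64.4 CPM in LacZ, and RFC1, the large subunit, was at 88.0 and 78.9 CPM in sh60, against 90.3 and 86.3 CPM in LacZ. RFC5 was at 64.7 and 64.5 CPM in sh60, against 65.2 and 66.8 CPM in LacZ, the smallest difference of the 5 subunits (log2 fold change -0.03, interval -0.22 to 0.16). Without sh60 replicate 1 the log2 fold change was -0.19 for RFC2 and -0.26 for RFC3. Without sh60 replicate 2 that of RFC2 was -0.24.

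RPA coats single-stranded DNA at the fork, and 0 of its 3 genes passed, where 13.0% of all genes tested fell. RPA1, the large subunit, was at 151.5 and 149.5 CPM in sh60, against 172.1 and 173.8 CPM in LacZ (log2 fold change -0.20, interval -0.37 to -0.03, edgeR adjusted p = 0.0712). RPA2 was at 134.4 and 142.5 CPM in sh60, against 136.1 and 143.5 CPM in LacZ, with overlapping groups (log2 fold change -0.01). RPA3 was at 37.9 and 38.5 CPM in sh60, against 41.1 and 43.8 CPM in LacZ (log2 fold change -0.15, adjusted p = 0.264). The log2 fold change of RPA1 was -0.21 without sh60 replicate 1 and -0.19 without sh60 replicate 2. The name table lists 3 pseudogenes of RPA2 and 2 of RPA3.

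Among the polymerase and primase genes, 2 of 5 fell, POLE and POLA1, where 13.0% of all genes tested fell. POLE, the catalytic subunit of the leading-strand polymerase epsilon, was at 192.8 and 192.3 CPM in sh60, against 235.6 and 244.5 CPM in LacZ (log2 fold change -0.32, SE 0.079, edgeR adjusted p = 0.00545). POLA1, the catalytic subunit of polymerase alpha, which extends primers, was at 98.6 and 87.8 CPM in sh60, against 116.0 and 118.6 CPM in LacZ (log2 fold change -0.33, adjusted p = 0.00898). Both genes had all sh60 values below all LacZ values, as did 32.3% of all genes tested. POLD1, the catalytic subunit of the lagging-strand polymerase delta, was at 76.5 and 88.0 CPM in sh60, against 87.5 and 86.4 CPM in LacZ, where sh60 replicate 2 was the highest library. Its interval ran from -0.27 to 0.12. PRIM1, the primase that makes RNA primers, was at 36.9 and 34.4 CPM in sh60, against 41.6 and 40.7 CPM in LacZ (adjusted p = 0.125), and POLA2, an accessory subunit, at 104.7 and 111.7 CPM in sh60, against 120.5 and 120.6 CPM in LacZ (adjusted p = 0.187). Leaving out LacZ replicate 1 ended the POLE and POLA1 calls (0.108 and 0.135), as did leaving out LacZ replicate 3 (0.217 and 0.205). The log2 fold change of PRIM1 was -0.26 without sh60 replicate 1. Without sh60 replicate 2 it was -0.20 for POLA2 and -0.18 for POLD1.

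LIG1, the ligase that seals Okazaki fragments, was at 77.3 and 83.7 CPM in sh60, against 101.9 and 100.8 CPM in LacZ, and fell (log2 fold change -0.33, SE 0.088, edgeR adjusted p = 0.00848). FEN1, the nuclease that trims them first, was at 157.1 and 160.6 CPM in sh60, against 175.3 and 175.9 CPM in LacZ (log2 fold change -0.14, adjusted p = 0.198). For both genes the sh60 libraries lay below the LacZ libraries, as they did for 32.3% of all genes tested. LIG1 was not called without LacZ replicate 1 or 3, and the log2 fold change of FEN1 was -0.16 without sh60 replicate 2.

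Of the nucleotide supply genes, 1 of 4 fell, where 13.0% of all genes tested fell. TK1, the S-phase thymidine kinase of the salvage route, was at 23.1 and 32.0 CPM in sh60, against 37.8 and 39.9 CPM in LacZ. Its sh60 libraries differed most from each other among these 4 genes, and its log2 fold change was -0.49 (SE 0.127, edgeR adjusted p = 0.00676), with -0.75 without sh60 replicate 2 and -0.28 without sh60 replicate 1. TYMS, which makes thymidylate, was at 167.8 and 170.1 CPM in sh60, against 193.8 and 189.2 CPM in LacZ (adjusted p = 0.0997). RRM1, the large subunit of ribonucleotide reductase, was at 263.8 and 230.8 CPM in sh60, against 286.4 and 280.8 CPM in LacZ (adjusted p = 0.0891). Neither passed, with log2 fold changes of -0.18 for TYMS and -0.20 for RRM1. RRM2, the small subunit that limits its activity in S phase, was at 329.2 and 309.8 CPM in sh60, against 336.0 and 322.0 CPM in LacZ, and the groups overlapped (log2 fold change -0.04, interval -0.21 to 0.12). Without sh60 replicate 1 the log2 fold change was -0.17 for TYMS and -0.30 for RRM1. Without sh60 replicate 2 that of TYMS was -0.19. Pseudogene names in the table number 2 for TYMS and 3 for RRM2.

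Of the G1/S regulators, CCNE1 and E2F2 fell. CCNE1, which encodes cyclin E1 (chromosome 19, 30302901 to 30315215, hg19), was at 31.8 and 31.6 CPM in sh60, against 45.3 and 48.6 CPM in LacZ. The means were 31.7 ± 0.127 CPM in sh60 and 46.9 ± 2.39 CPM in LacZ (SD, n = 2 each), and the log2 fold change was -0.57 (SE 0.098, edgeR adjusted p = 0.000284). E2F2, an activating E2F factor (chromosome 1, 23832920 to 23857712, hg19), was the lowest of the 44 genes per length. It was at 6.64 and 5.90 CPM in sh60, against 9.95 and 9.61 CPM in LacZ (log2 fold change -0.65, SE 0.141, adjusted p = 0.00204).

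E2F1 and CCNE2 were lower in both sh60 libraries than in both LacZ libraries, as were 32.3% of all genes tested, but did not pass. E2F1, the best known activating E2F factor, was at 47.8 and 60.2 CPM in sh60, against 62.1 and 63.8 CPM in LacZ (log2 fold change -0.22, interval -0.44 to 0.0056, edgeR adjusted p = 0.138). Its sh60 replicate 1 was the low library, and the log2 value was -0.40 without sh60 replicate 2 and -0.06 without sh60 replicate 1. CCNE2, which encodes cyclin E2, was at 16.7 and 14.2 CPM in sh60, against 19.9 and 17.3 CPM in LacZ (log2 fold change -0.28, adjusted p = 0.107). The log2 fold change of CCNE2 was -0.39 without sh60 replicate 1.

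The 4 genes of fork protection and histone supply included 2 falls, where 13.0% of all genes tested fell. CHAF1A and CHAF1B encode subunits of the assembly factor that places histones on new DNA. CHAF1B was at 43.5 and 43.99 CPM in sh60, against 57.9 and 55.8 CPM in LacZ (log2 fold change -0.38, SE 0.094, edgeR adjusted p = 0.00532). CHAF1A was at 154.7 and 153.3 CPM in sh60, against 187.1 and 186.7 CPM in LacZ (log2 fold change -0.28, SE 0.080, adjusted p = 0.0135). For both, replicates lay within a few percent of each other. The sh60 libraries of both genes lay below the LacZ libraries, as for 32.3% of all genes tested. TIPIN, which protects stalled forks, was at 30.1 and 25.8 CPM in sh60, against 31.1 and 33.1 CPM in LacZ (adjusted p = 0.183). SLBP, which binds the stem-loop of histone mRNAs, was at 110.5 and 107.2 CPM in sh60, against 118.0 and 109.0 CPM in LacZ (log2 fold change -0.06, interval -0.24 to 0.12). Leaving out LacZ replicate 1 ended the calls of CHAF1B and CHAF1A (0.151 and 0.238), as did leaving out LacZ replicate 3 (0.0898 and 0.249). The log2 fold change of TIPIN was -0.31 without sh60 replicate 1.

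**Figure D5:**
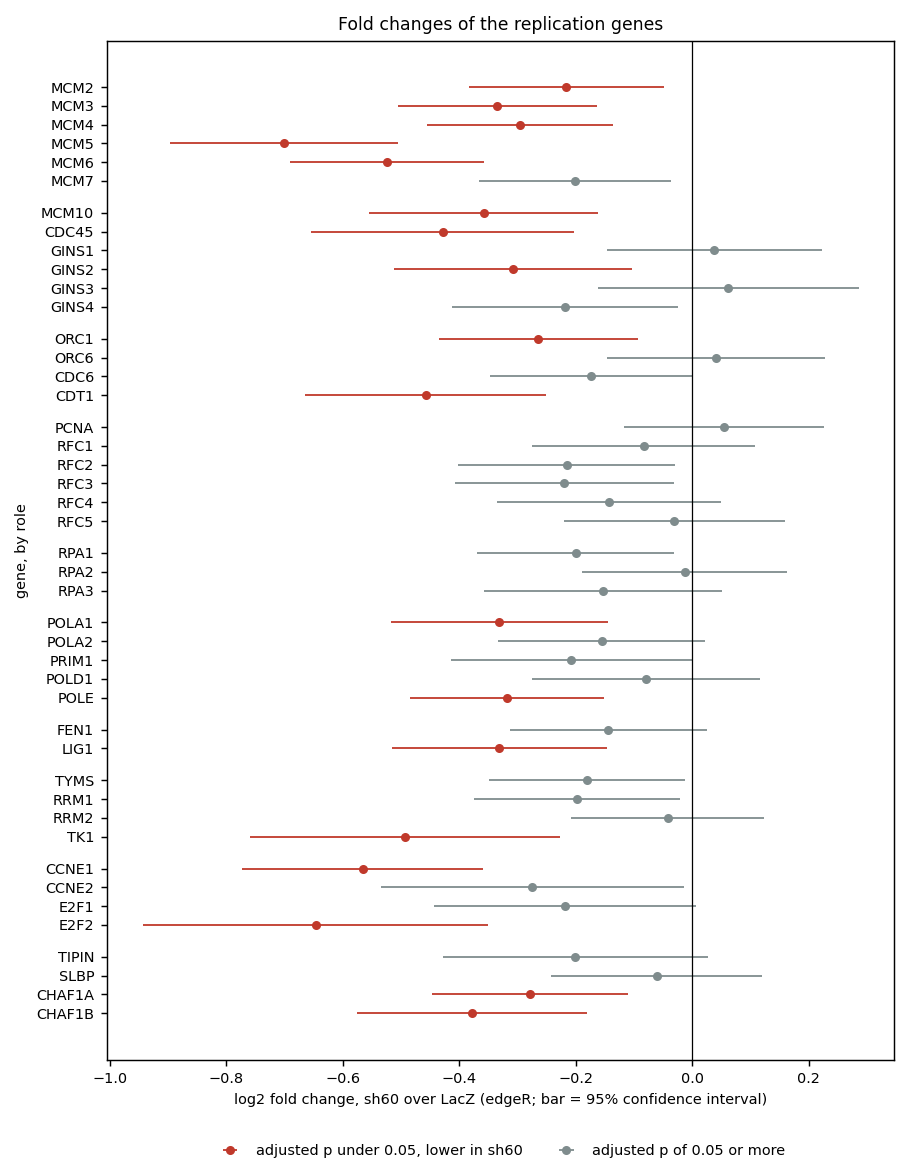
Log2 fold change of sh60 over LacZ (x axis) for each of the 44 genes, grouped by role down the page, with 95% confidence intervals from edgeR as bars. The 18 genes that fell are red and the 26 that did not pass are grey, and MCM5 has the value farthest from 0, at -0.70.

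Among genes of the same pathway outside the 44, more fell than rose. Of 86 such genes in 7 lists, 24 fell, 9 rose and 53 did not pass, with a median log2 fold change of -0.15, and 27.9% of the 86 fell, against 13.0% of all genes tested. The number of falls was 6 without LacZ replicate 1, 7 without LacZ replicate 3 and 42 without sh60 replicate 1, and that of rises was 4 without LacZ replicate 3. When changes had to exceed 1.2-fold, 5 of the 86 genes fell and 6 rose. Of the called genes with the smallest p in these lists, 13 then lost their calls (glmTreat adjusted p from 0.0586 to 0.648). Among these 13 were POLE2, RNASEH2B, RB1 and DCK. By list, 2 of 16 further licensing and firing genes, 2 of 7 polymerase subunits, 6 of 13 fork factors, 5 of 10 nucleotide genes, 3 of 20 E2F, RB and cyclin genes and 5 of 13 chromatin assembly genes fell. The shares of the licensing and firing list (12.5%) and of the E2F, RB and cyclin list (15%) were near that of all genes tested. These lists were set with earlier results of the same libraries known.

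POLE3, a histone-fold subunit of polymerase epsilon, was at 86.3 and 92.2 CPM in sh60, against 142.8 and 150.5 CPM in LacZ (log2 fold change -0.72, SE 0.086, edgeR adjusted p = 6.28e-06). POLE2, its second subunit, was at 16.6 and 16.1 CPM in sh60, against 22.6 and 22.8 CPM in LacZ (log2 fold change -0.48, adjusted p = 0.00320). With POLE, 3 of the 4 subunit genes of polymerase epsilon fell, POLE4 being the exception, where 13.0% of all genes tested fell. This grouping is not among the lists, and POLE lost its call when the fall had to exceed 1.2-fold. CDC7, the kinase that fires origins, and TICRR, which helps load CDC45, had the same log2 fold change of -0.32 (adjusted p = 0.0141 and 0.0166). RNASEH2B, a subunit of the enzyme that removes RNA from DNA, fell (log2 fold change -0.47, adjusted p = 0.00248), as did the fork protection genes TIMELESS (-0.30, adjusted p = 0.00933) and CLSPN (-0.29, adjusted p = 0.0200). Of these 7 genes, POLE3 and POLE2 kept their calls when any 1 library was left out. POLE2 lost its call when the fall had to exceed 1.2-fold (glmTreat adjusted p = 0.0619). RNASEH2B lost its call without LacZ replicate 3 (0.0792), and CDC7, TICRR, TIMELESS and CLSPN without LacZ replicate 1 (0.131, 0.09998, 0.206 and 0.284) or 3 (0.272, 0.391, 0.210 and 0.211).

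Nucleotide genes outside the 44 moved both ways. RRM2B, a p53-induced form of the small subunit of ribonucleotide reductase, was at 99.3 and 81.0 CPM in sh60, against 66.5 and 56.3 CPM in LacZ, and rose (log2 fold change 0.55, SE 0.109, edgeR adjusted p = 0.000906). DCK, a deoxycytidine kinase, fell (log2 fold change -0.43, adjusted p = 0.00895), as did the mitochondrial kinase TK2 (-0.40, adjusted p = 0.0204). RRM2B was not called without LacZ replicate 3 (0.0624). DCK was not called without LacZ replicate 1 (0.0902), nor was TK2 (0.0692), which was also lost without LacZ replicate 3 (0.195).

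In the list of E2F, RB and cyclin genes 5 of 20 rose and 3 fell, against 15.8% and 13.0% of all genes tested. E2F7, a repressive E2F factor, was at 114.2 and 98.0 CPM in sh60, against 71.0 and 72.2 CPM in LacZ, and rose (log2 fold change 0.57, SE 0.094, edgeR adjusted p = 0.000192). E2F8, its relative with a similar role, was at 13.0 and 12.8 CPM in sh60, against 21.6 and 23.4 CPM in LacZ, and fell (log2 fold change -0.80, SE 0.115, adjusted p = 4.13e-05). RB1, the pocket protein that restrains E2F factors, was at 70.9 and 61.1 CPM in sh60, against 50.1 and 46.5 CPM in LacZ, and rose (log2 fold change 0.45, adjusted p = 0.00249). CCND3, a D-type cyclin, rose (log2 fold change 0.52, adjusted p = 0.00131), while E2F4 (-0.26, adjusted p = 0.0350) and E2F3 (-0.27, adjusted p = 0.0446) fell. RB1 was not called without LacZ replicate 3 (0.111). E2F4 and E2F3 were lost without LacZ replicate 1 (0.311 and 0.156) and 3 (0.314 and 0.554) and with library totals only (0.0565 and 0.0681), and E2F3 also without sh60 replicate 2 (0.0753) and by DESeq2 (0.0526).

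UHRF1, which guides maintenance DNA methylation at the fork, had the largest fall of the 130 genes in these lists. It was at 37.7 and 40.1 CPM in sh60, against 76.2 and 71.8 CPM in LacZ (log2 fold change -0.93, SE 0.095, edgeR adjusted p = 1.11e-06). UNG, which removes uracil from new DNA, was at 129.8 and 133.8 CPM in sh60, against 182.6 and 196.0 CPM in LacZ (log2 fold change -0.52, adjusted p = 0.000117). RBBP4, a histone chaperone that is also part of the CHAF1 complex, was at 626.5 and 582.3 CPM in sh60, against 761.7 and 766.7 CPM in LacZ (log2 fold change -0.34, adjusted p = 0.00285). RBBP4 was not called without LacZ replicate 1 (0.0719) or 3 (0.0899).

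The inhibitors that act before S phase were measured in the same libraries. CDKN1A was at 226.3 and 256.8 CPM in sh60, against 64.8 and 42.8 CPM in LacZ (log2 fold change 2.16, SE 0.135, edgeR adjusted p = 7.38e-09), and LacZ replicate 1 was the higher of the LacZ libraries. Of 7 inhibitor genes 3 rose and 1 fell, where 15.8% of all genes tested rose and 13.0% fell. CDKN2B and CDKN2A rose (log2 fold changes 1.17 and 0.97) and CDKN1C fell (-0.52, adjusted p = 0.00397). CDKN2B was at 30.4 and 32.7 CPM in sh60, against 17.9 and 9.78 CPM in LacZ replicates 1 and 3. CDKN2A was low in all libraries, at 2.44 and 2.92 CPM in sh60, against 1.61 and 1.06 CPM in LacZ. CDKN2A was not called without LacZ replicate 3 (0.0504) or sh60 replicate 2 (0.0609), and CDKN1C not without LacZ replicate 1 (0.172).

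Replication-dependent histone mRNAs mostly end in a stem-loop in place of a poly(A) tail. Histone genes, taken by symbols starting HIST1H to HIST4H, had few counts in these libraries, which were made with an mRNA kit. Some are annotated with longer forms, such as HIST1H2BK with 2 exons and HIST2H2BE with 2223 bases of exon. Which form of the mRNA was counted is not known. Of 73 such genes listed, 30 passed the filter on low counts, and 1 of these averaged over 10 CPM. Of the 30, 4 rose, 2 fell and 24 did not pass, where 15.8% of all genes tested rose and 13.0% fell. HIST1H2BK was at 17.2 and 20.1 CPM in sh60, against 10.8 and 9.45 CPM in LacZ (log2 fold change 0.88, edgeR adjusted p = 5.30e-05). HIST2H2BE (log2 fold change 0.82, adjusted p = 0.00163) and HIST1H2BJ (1.34, adjusted p = 0.00635) rose as well. HIST1H2BH (-1.21, adjusted p = 0.00807) and HIST2H2BC (-0.94, adjusted p = 0.0377), named after their values were seen, fell. Many of these genes are near-identical copies, so their counts are uncertain.

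Markers of other cells were read beside these results. Of 10 fibroblast markers 9 were tested, of which 4 rose and 2 fell, where 15.8% of all genes tested rose and 13.0% fell. The summed level of the 10 was 929.3 and 1093 CPM in sh60, against 544.2 and 447.1 CPM in LacZ. None of the 10 was at 0 in all libraries, and COL1A1 was at 553.7 and 684.0 CPM in sh60, against 141.4 and 84.9 CPM in LacZ. Without COL1A1 the other 9 summed to 375.6 and 409.4 CPM in sh60, against 402.8 and 362.2 CPM in LacZ, so that the groups overlapped. The other rises were COL1A2 (log2 fold change 2.13), LUM (1.61) and POSTN (0.98), and the falls were THY1 (-0.34) and PDGFRA (-0.30). THY1 was the highest of these other 9, at 175 and 189 CPM in sh60, against 233 and 230 CPM in LacZ. COL1A2 was at 70.6 and 76.2 CPM in sh60, against 19.9 and 13.2 CPM in LacZ. Of the 12 embryonal carcinoma markers 5 fell (LIN28B, TDGF1, SALL4, NANOG and DNMT3B) and 1, SOX2, rose, against 13.0% and 15.8% of all genes tested. Blood cell markers summed to 3.20 and 3.23 CPM in sh60, against 2.90 and 3.09 CPM in LacZ, and PTPRC and HBB had 0 counts throughout. The part of these levels in the falls of replication genes was not tested.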

How the data were processed

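The deposited values are counts per gene, whole numbers without normalization, 1 table per library, per the file headers. Exon length in bases (a value of its own kind, neither a level nor a score) is also as deposited. STAR 2.7.6a and the build hg19 are named in the submitters' processing notes. Per the file headers, featureCounts of Subread 2.0.0 counted reverse-strand reads over exons (strand setting 2). The command has no option for reads that map to several places, so genes with pseudogenes are uncertain. Beside the genes noted above, 1 pseudogene name is listed for each of ORC1, which fell, RFC3, RFC5, FEN1 and TIPIN. Members overlap other genes only on the opposite strand.

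Libraries were TMM-scaled and tested with edgeR 4.0.16 in R 4.3.3 (filterByExpr, glmQLFit, glmQLFTest, group as the only term, 4 libraries, 2 residual degrees of freedom). P-values were adjusted by Benjamini-Hochberg over all 16040 genes tested, of 20937 with at least 1 count. Alternatives used DESeq2 1.42.0, limma 3.58.1, other scalings and filters, glmTreat against a fold of 1.2, GC and length correction, and leaving out each library. GC content came from GENCODE transcripts for 94.2% of tested genes and all members. The code was tested on simulated data. Replicates scattered beyond Poisson noise, with a chi-square over its degrees of freedom of 17.1 within sh60 and 6.28 within LacZ, so each library counted as 1 replicate. The members and lists were chosen with earlier results of these data known. All 44 members are named, and from other lists up to 3 genes per direction that passed with the smallest p, plus BEND3, CDKN1A and up to 3 histone genes. The histone genes HIST1H2BH and HIST2H2BC were named beyond this rule, after their values were seen. A result this rule would name is not reported here. Coordinates are hg19 as in the files, except promoters.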

Additional observations from a re-analysis of the deposited data

How the results depend on the processing

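Calls of DNA replication genes rest on small changes and 2 libraries per group. The number that fell, 18, was 4 with glmTreat against a fold of 1.2 and 33 with GC and length trends removed, and ran from 5 to 29 when 1 library was left out. The other 8 alternatives gave 17 to 24, and 0 rose in any of the 14. For the pathway genes the 24 falls became 5 with glmTreat and 49 with GC and length trends removed, with 6 to 42 on leaving out 1 library, and the 9 rises ran from 4 to 10. Over all genes, 2084 fell and 2540 rose. With glmTreat these were 882 and 1401, with GC and length trends removed 3693 fell and 2905 rose, and leaving out 1 library gave 956 to 2697 falls and 1331 to 2789 rises. The glmTreat fit changes the hypothesis by construction, and leaving out 1 library changes the samples. Removing GC and length trends changes neither, and the cause of its shift was not tested. Leaving out 1 library also leaves the spread to the pair of the other group. The median log2 fold change of all genes stayed within 0.1 of 0 under every scaling.

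Some values near 0 changed sign, all in genes that did not pass. With GC and length trends removed, log2 fold changes were -0.048 for GINS1, -0.029 for GINS3, -0.028 for ORC6 and -0.029 for PCNA, and with library totals only RPA2 was at 0.014. On leaving out 1 library, values ran from -0.023 to 0.15 for GINS3, from -0.0077 to 0.088 for ORC6, from -0.024 to 0.13 for PCNA, from -0.056 to 0.029 for RPA2, from -0.18 to 0.018 for POLD1, from -0.087 to 0.0013 for RRM2 and from -0.12 to 0.0025 for SLBP. No paired analysis was possible because the groups share only replicate number 1.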
